A study of Mus musculus with 2 samples.

Results

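Notch receptors, their ligands and the repressors they switch on were followed as a group of 10 genes in RNA-seq libraries of perivascular cells (PCs) from the mouse aorta. The group was named from general knowledge of the pathway, with earlier results of these data known. It held the receptors Notch1, Notch2 and Notch3, the ligands Jag1, Jag2, Dll1 and Dll4, and the target repressors Hes1, Hey1 and Heyl. All 10 were found, each on 1 row, among 20211 gene symbols. The study compared PCs of wild type mice (WT) with PCs of Kai1 knockout mice (Kai1-/-), which lack the tetraspanin KAI1, encoded by Cd82. Both groups were primary cultures on the C57BL/6 background and were grown with 10% FBS by the labels, although the study's culture methods give a higher share. Each group was 1 library. The study bought adult C57BL/6 mice of either sex, but the age and sex behind these 2 libraries, the number of animals in each culture and the part of Cd82 removed were not given in the sources used here.

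Notch receptors are single-pass membrane proteins that are switched on by ligands of the Jagged and Delta families on a neighbouring cell. Binding lets ADAM proteases and then gamma-secretase cut the receptor, and the freed intracellular part enters the nucleus, joins the DNA-binding protein RBPJ and a Mastermind coactivator, and turns on genes of the Hes and Hey families, which encode repressors. In arteries, NOTCH3 is the receptor best known from smooth muscle cells and pericytes, JAG1 from endothelial or neighbouring mural cells supports contractile differentiation, and DLL4 is best known from arterial and sprouting endothelium.

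In both libraries, Notch2, Jag1 and Hes1 were the most abundant members of their roles. Notch3 was the receptor that differed most, at 46.3% of its WT level in Kai1-/- PCs, and Hes1 was at 63.0%. Notch1 was below Notch3 in the WT library and above it in the Kai1-/- library. None of the 10 genes passed a 2-fold difference on the scale used for counting, log2((Kai1-/- RPKM + 0.1)/(WT RPKM + 0.1)), where RPKM is a read number divided by the length of the transcript and by a measure of library depth. On this scale 9.29% of the 20211 symbols were lower by more than 2-fold, and 5.96% were higher by as much. The added 0.1 understates the change of low genes, and Jag2, Dll1, Dll4 and Heyl, which did not exceed 0.1 RPKM in either library, could not have passed at such levels.

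With 1 library per genotype there is no replicate check and no p-value, and differences include those between animals, cultures and library preparations. Most low RPKM values lay on steps of whole reads, from which a depth of about 29500000 reads was estimated for WT and 26700000 for Kai1-/-. Whether the authors scaled the libraries against each other before deposit was not given in the sources used here, and any such scaling is part of these depths and of the RPKM values. The 95% intervals given here come from these estimated reads and cover counting error only. Cd82 itself was at 12.8 RPKM in WT and 2.62 RPKM in Kai1-/-. The Y-linked gene Ddx3y was at 6.56 RPKM in WT but at 0 in Kai1-/-, so that the sex of the cells and the genotype cannot be told apart. In bulk RNA, fewer cells that express a gene and less RNA per cell cannot be told apart either. The genes kept for counts were the 10068 whose RPKM averaged 1 or more over both libraries. Their median log2 ratio was 0.08, with 44.9% of them below 0, and the median became -0.41 when both libraries were scaled to Gapdh. RPKM summed over all symbols was 884463 in WT and 1238190 in Kai1-/-. Scaling to equal sums was not among the alternatives and would lower every Kai1-/- value against WT.

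**Figure D1:**
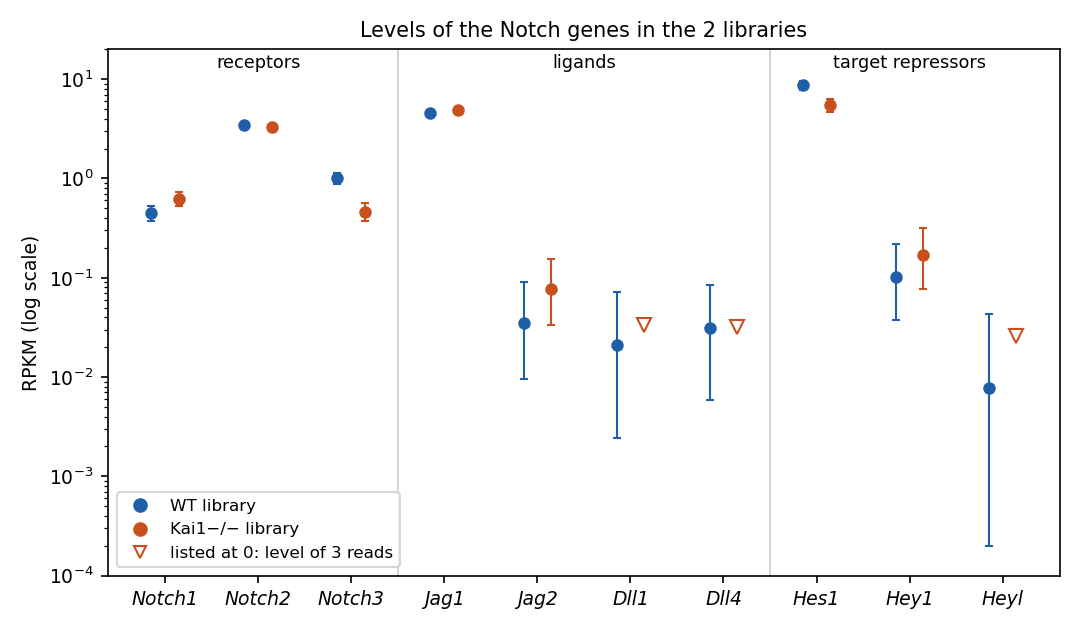
RPKM on a log scale of the 10 genes in the WT (blue) and Kai1-/- (orange) libraries, grouped by role; bars are 95% intervals from estimated reads (counting error only), and open triangles mark genes listed at 0, drawn at the level that 3 reads would give. Notch2, Jag1 and Hes1 lie between 3.27 and 8.65 in both libraries, whereas Jag2, Dll1, Dll4, Hey1 and Heyl stay at or below 0.168.

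Among the receptors, Notch2 was the most abundant. Notch2 (mm9 chromosome 3, 97817461 to 97954290, plus strand) encodes a receptor that vascular smooth muscle expresses beside NOTCH3. It was measured at 3.49 RPKM in WT and 3.27 RPKM in Kai1-/-, from about 1060 and 898 reads. The Kai1-/- level was 93.8% of WT with an interval from 85.7% to 103%, so that the difference as deposited was within counting error. The log2 ratio was -0.09, and 39.0% of the genes kept had a lower one. Scaling to Gapdh moved this log2 ratio to -0.57.

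Notch3 was lower in the Kai1-/- library. Notch3 (mm9 chromosome 17, 32257765 to 32303825, minus strand) encodes the mural receptor that is mutated in the inherited small-vessel disease CADASIL. It was measured at 1.002 RPKM in WT and 0.464 RPKM in Kai1-/-, from about 232 and 97 reads. The Kai1-/- level was 46.3% of WT, and counting error gave an interval from 36.1% to 58.9%. The plain log2 ratio was -1.11, past 2-fold, but with 0.1 added to each value it was -0.97 and just short of the line. Of the genes kept, 8.17% had a lower log2 ratio than Notch3, which with a mean of 0.733 RPKM was not itself among them.

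Notch1 went the opposite way in the values as deposited. Notch1 (mm9 chromosome 2, 26313423 to 26372183, minus strand) encodes a receptor of arterial endothelium and of many progenitor cells. It was measured at 0.447 RPKM in WT and 0.620 RPKM in Kai1-/-, from about 122 and 153 reads. The Kai1-/- level was 139% of WT with an interval from 109% to 178%, and the log2 ratio was 0.40, although scaling to Gapdh turned it to -0.023. Of the genes kept, 30.3% had a higher log2 ratio than Notch1, which with a mean of 0.533 RPKM was not itself among them.

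The ratio between 2 genes within a library does not depend on how the libraries were scaled. Notch3 was 2.24 times as high as Notch1 in WT, with an interval from 1.80 to 2.83. In Kai1-/- it was 0.748 times as high, with an interval from 0.576 to 0.974. The order of this pair was therefore opposite in the 2 libraries by more than counting error. Notch2 was 3.48 times as high as Notch3 in WT (interval 3.01 to 4.03) and 7.05 times as high in Kai1-/- (interval 5.71 to 8.78). Against Notch1, in contrast, Notch2 was 7.80 times as high in WT and 5.27 times as high in Kai1-/-, with intervals from 6.49 to 9.52 and from 4.45 to 6.32.

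Notch4, an endothelial receptor that is not one of the 10 genes, completes the receptor family. It was measured at 1.41 RPKM in WT and 0.835 RPKM in Kai1-/-, or 59.4% of WT with an interval from 48.0% to 73.0%. Over all 4 receptors, Notch2 made up 55.0% of the summed RPKM in WT and 63.0% in Kai1-/-. The share of Notch3 was 15.8% and 8.94%, that of Notch4 22.2% and 16.1%, and that of Notch1 7.04% and 12.0%. From high to low, the order was Notch2, Notch4, Notch3 and Notch1 in WT and Notch2, Notch4, Notch1 and Notch3 in Kai1-/-. Neighbours in these orders differed by more than counting error, the closest being Notch4 and Notch1 in Kai1-/-, with a ratio of 1.35 and an interval from 1.07 to 1.71, and Notch1 and Notch3 in the same library.

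**Figure D2:**
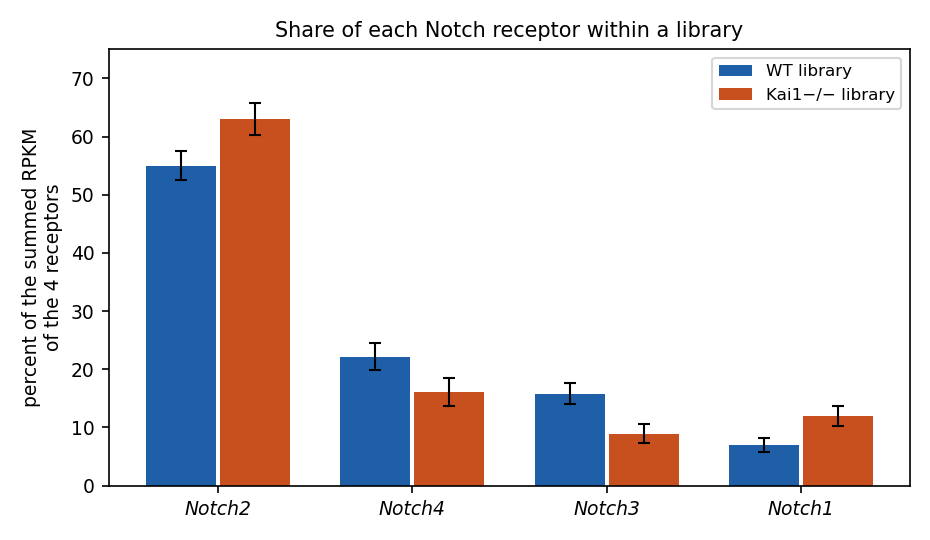
Percent of the summed RPKM of the 4 Notch receptors taken by each receptor in the WT (blue) and Kai1-/- (orange) libraries, with 95% intervals from estimated reads. Notch2 takes 55.0% and 63.0% of the sum, and Notch3 stands above Notch1 in WT (15.8% against 7.04%) and below it in Kai1-/- (8.94% against 12.0%).

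The promoter sequences of Notch1 and Notch3 are printed because this pair changed order between the libraries. They are the 250 bases before the RefSeq transcription start in the GRCm38.p6 build, written 5′ to 3′ along the gene, at chr2:26503823-26504072 for Notch1 and chr17:32166891-32167140 for Notch3, both on the minus strand. Capitals mark each match to the GC box GGGCGG on either strand, a motif bound by SP1-type factors.
Notch1: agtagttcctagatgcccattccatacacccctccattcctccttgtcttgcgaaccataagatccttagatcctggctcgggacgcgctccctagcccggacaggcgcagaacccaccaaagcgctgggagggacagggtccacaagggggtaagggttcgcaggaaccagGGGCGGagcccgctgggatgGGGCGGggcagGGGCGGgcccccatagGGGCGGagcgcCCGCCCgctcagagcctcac
Notch3: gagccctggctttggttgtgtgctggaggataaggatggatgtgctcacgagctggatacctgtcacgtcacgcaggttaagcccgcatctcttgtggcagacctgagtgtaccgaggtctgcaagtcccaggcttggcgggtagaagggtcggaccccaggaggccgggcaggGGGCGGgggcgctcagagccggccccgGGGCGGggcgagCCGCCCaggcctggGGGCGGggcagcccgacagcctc

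Both sequences are rich in G and C, at 66.0% for Notch1 and 68.8% for Notch3, and hold 5 and 4 GC boxes. Over the same 250 bases, Notch2 (72.0% G and C) and Jag2 (87.2%) hold 5 each, Dll4 holds 2, and Jag1 and Dll1 hold 0. The GC box occurs at least once in 35.6% of the 32817 windows of 300 bases in the RefSeq table, each of which ends 50 bases after a start. That share is not a baseline for the number of boxes in 250 bases. TGGGAA, the core that RBPJ recognises, was searched for on both strands in the windows of the 7 members in this table, which are the receptors and the ligands. It had 0 matches in their 8 windows and occurs in 25.6% of all windows. Hes1, Hey1 and Heyl had no entry.

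Of the ligands, Jag1 was the only member with more than a few reads. Jag1 (mm9 chromosome 2, 136907192 to 136942380, minus strand) encodes a Jagged ligand needed for the smooth muscle coat of arteries. It was measured at 4.60 RPKM in WT and 4.86 RPKM in Kai1-/-, from about 734 and 701 reads. The Kai1-/- level was 106% of WT with an interval from 95.2% to 117%. The log2 ratio of 0.08 became -0.00089 with the median ratio set to 0, -0.047 with the upper quartiles made equal and -0.41 with scaling to Gapdh, so that no direction is given. Jag1 took 98.1% of the summed RPKM of the 4 ligands in WT and 98.4% in Kai1-/-. It was also more abundant than Notch2, at 1.32 times its level in WT and 1.49 times in Kai1-/-, with intervals from 1.20 to 1.45 and from 1.34 to 1.64.

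Jag2, the other Jagged ligand (mm9 chromosome 12, 114146801 to 114167706, minus strand), was measured at 0.0350 RPKM in WT and 0.0777 RPKM in Kai1-/-, which is about 4 and 8 reads. The interval of this ratio ran from 59.3% to 1005% of WT, so that the difference is within counting error.

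The Delta ligands lay at or under 3 reads in both libraries. Dll4, the Delta ligand of tip cells and arteries (mm9 chromosome 2, 119151520 to 119161698, plus strand), was at 0.0312 RPKM in WT, about 3 reads, and at 0 in Kai1-/-. At the depth of the Kai1-/- library 3 reads would give 0.0317 RPKM, as much as the WT value. Dll1, a Delta ligand with a role in arterial identity (mm9 chromosome 17, 15504318 to 15513836, minus strand), was at 0.0209 RPKM in WT, about 2 reads, and at 0 in Kai1-/-, where 3 reads would give 0.0333 RPKM. A difference in either gene was not detectable at this depth, and no ratio is given.

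Of the target repressors, Hes1 was the abundant member and was lower in the Kai1-/- library. Hes1 (mm9 chromosome 16, 30064470 to 30067882, plus strand) encodes the basic helix-loop-helix repressor most widely used as a Notch readout, which other pathways also induce. It was measured at 8.65 RPKM in WT and 5.45 RPKM in Kai1-/-, from about 324 and 184 reads. The Kai1-/- level was 63.0% of WT, and counting error gave an interval from 52.2% to 75.6%. The log2 ratio was -0.66, and 14.3% of the genes kept had a lower one. Over all alternatives the ratio lay between -1.15 and -0.58. Against Notch2 of the same library, Hes1 was 2.48 times as high in WT and 1.67 times as high in Kai1-/-, with intervals from 2.19 to 2.82 and from 1.41 to 1.95 that do not overlap.

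The Hey family members were near the limit of detection. Hey1, a repressor that follows Notch in arterial cells (mm9 chromosome 3, 8663362 to 8667039, minus strand), was measured at 0.101 RPKM in WT and 0.168 RPKM in Kai1-/-, about 6 and 9 reads. The interval of the ratio ran from 52.8% to 567% of WT, so that no difference was detectable. Heyl, known as a NOTCH3 target in smooth muscle (mm9 chromosome 4, 122910799 to 122927118, plus strand), was at 0.00779 RPKM in WT, about 1 read, and at 0 in Kai1-/-, where 3 reads would give 0.0260 RPKM. Hes1 thus made up 98.8% of the summed RPKM of the 3 repressors in WT and 97.0% in Kai1-/-.

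**Figure D3:**
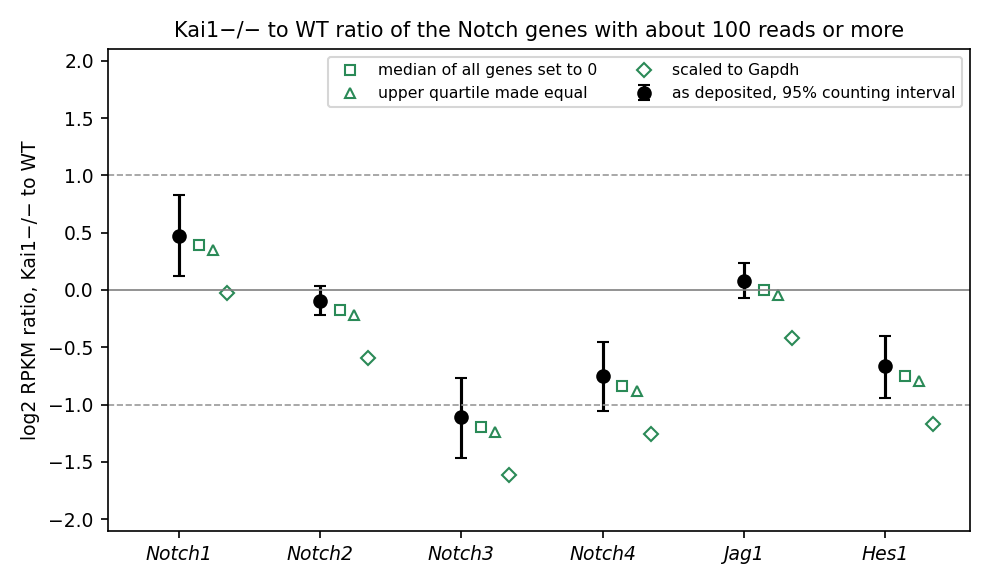
Plain log2 RPKM ratio of Kai1-/- to WT for the members with 97 or more estimated reads in each library and for Notch4, with no pseudocount; black bars are 95% counting intervals and dashed lines mark 2-fold. Green symbols give the same ratio under 3 other scalings, which move every gene alike; Notch3 and Hes1 stay below 0 under each, Notch1 comes to about 0 when scaled to Gapdh, and Jag1 comes to 0 or below under all 3.

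Among the genes kept, 7.81% were lower by more than 2-fold, and 7.98% were higher by as much. Of the 10 members only Notch2, Jag1 and Hes1 were kept, and 0 of these 3 passed 2-fold in either direction. Their median log2 ratio was -0.09, beside 0.08 for all genes kept. Without the added 0.1, among the members above 0 in both libraries, Notch3 was more than 2-fold lower and Jag2 more than 2-fold higher, the latter on 4 and 8 reads.

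The other genes of the pathway came from a list of 68 that covers ligand-like proteins, enzymes, the nuclear complex and further targets. Of these, 51 were among the genes kept, with 3 more than 2-fold lower (5.88%), 4 more than 2-fold higher (7.84%) and a median log2 ratio of -0.06. Ligand-like proteins, which bind or modulate Notch without being classical ligands, gave 6 of these 7 genes. All 6 ligand-like genes kept, of 9 listed, were past 2-fold, whereas 44 of the 45 other genes kept were within it. Over all genes kept, 7.81% were lower and 7.98% higher by more than 2-fold. The lists were chosen with earlier results of these data known, so this contrast is a description only.

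Mfap2 and Mfap5, which encode microfibril-associated glycoproteins of the elastic matrix, were the ligand-like genes that were lower. Mfap2 was at 5.34 RPKM in WT and 0.132 RPKM in Kai1-/-, a log2 ratio of -4.55 on about 139 and 3 reads. Mfap5 was at 194 and 43.6 RPKM, a log2 ratio of -2.15. Dlk1 and Dlk2, which encode non-classical Delta-like proteins, were higher in Kai1-/-, with 4.85 and 10.6 RPKM for Dlk1 (log2 ratio 1.11) and 2.23 and 8.33 RPKM for Dlk2 (log2 ratio 1.85). Egfl7, a secreted protein that can bind Notch, was at 2.28 and 7.39 RPKM (log2 ratio 1.65), and Nov, a matricellular CCN protein, at 11.6 and 23.6 RPKM (log2 ratio 1.02). Dlk1 and Nov lay near the line, and of the 4 higher genes only Dlk2 and Egfl7 stayed past it with a pseudocount of 1 RPKM, with the upper quartiles made equal or with scaling to Gapdh.

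The enzymes that cut and modify the receptors differed less. Of gamma-secretase, 5 of 7 subunit genes were kept, all within 2-fold and all below 0 on the log2 scale, beside 44.9% of all genes kept, with a median of -0.29. Ncstn, the large glycosylated subunit, was at 33.5 and 17.5 RPKM (log2 ratio -0.93), and Psen2, a catalytic subunit, at 18.0 and 9.67 RPKM (-0.89). Psenen had the highest level, at 536 and 470 RPKM. Below the filter, Aph1b was at 1.21 and 0.468 RPKM, values that are uncertain because reads can be shared with its close copy Aph1c. The proteases Furin, Adam10 and Adam17, which make the earlier cuts, had log2 ratios of -0.53, -0.04 and -0.05. Of the Fringe enzymes, which tune the choice of ligand, and the other sugar transferases on the list, 4 of 5 were kept. Their log2 ratios ran from -0.55 to 0.50. Rfng was highest at 18.7 and 26.5 RPKM, and Mfng was listed at 0 in both libraries.

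The nuclear machinery was present in both libraries. Rbpj was at 10.1 RPKM in WT and 9.59 RPKM in Kai1-/-, about 1595 and 1365 reads, and the counting interval of its log2 ratio, -0.18 to 0.03, includes 0. Of the nuclear complex, 6 of 7 genes were kept with a median log2 ratio of 0.26, the highest level being that of Snw1, a splicing factor and Notch cofactor, at 27.3 and 50.7 RPKM. The 8 corepressor genes kept had log2 ratios from -0.13 to 0.33, with Hdac1 highest at 38.7 and 48.7 RPKM. Of the genes for turnover and trafficking, Numbl, which encodes a relative of the Notch inhibitor NUMB, was more than 2-fold lower at 10.2 and 4.36 RPKM (log2 ratio -1.21). Numb itself was at 5.75 and 5.13 RPKM, and Nedd4, a ubiquitin ligase, had the highest level at 75.1 and 59.7 RPKM. The 3 genes kept for ligand endocytosis had log2 ratios from -0.49 to -0.23, with Mib2 highest at 9.21 and 6.51 RPKM.

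**Figure D4:**
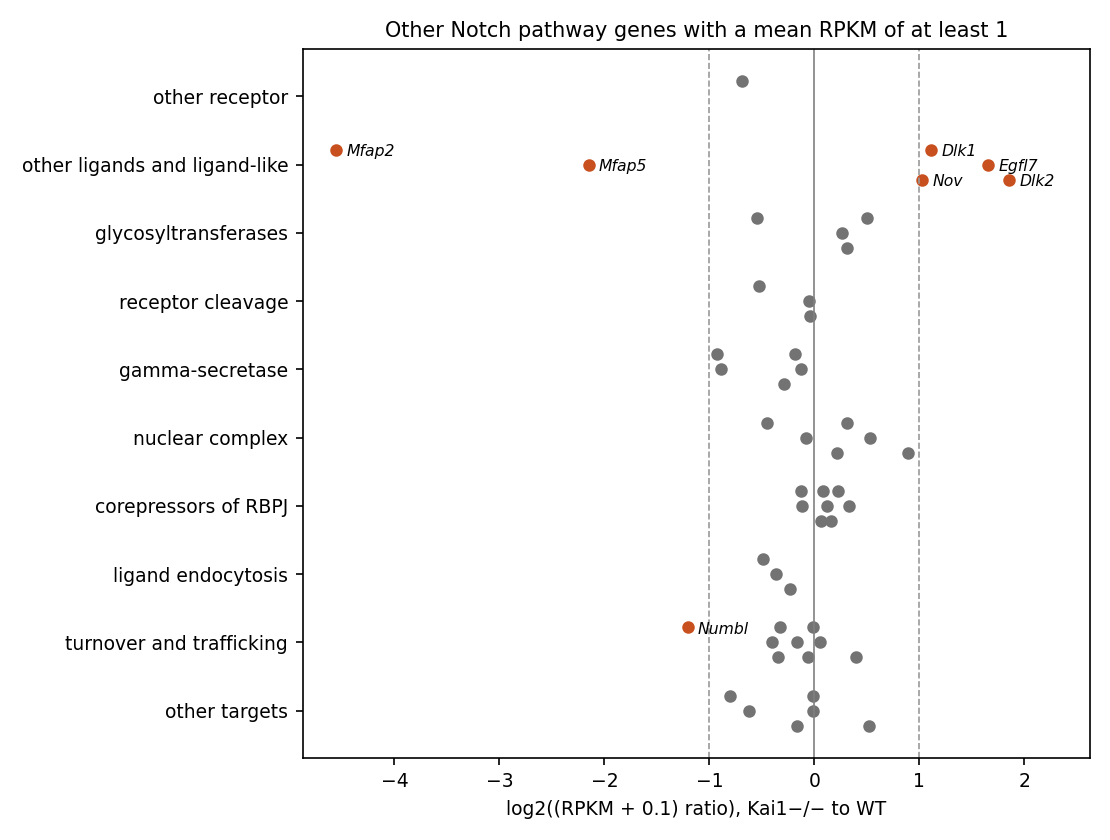
Log2 ratio of Kai1-/- to WT after adding 0.1 to each RPKM, for the 51 other Notch pathway genes kept, by role; each point is 1 gene, and orange points with names lie past 2-fold (dashed lines). The 6 ligand-like genes are all past 2-fold in one direction or the other, and Numbl is the only other gene there.

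Of the 12 further targets on this list, 6 were kept, all within 2-fold. Of these, 5 were below 0 on the log2 scale, beside 44.9% of all genes kept. The counting intervals of Hes6 (-0.14 to 0.11) and Id3 (-0.06 to 0.04), which are among the 5, include 0. Id3, an inhibitor of basic helix-loop-helix factors that also answers to BMP, was highest at 235 and 233 RPKM (log2 ratio -0.01), and its relative Id1 was the gene above 0, at 76.0 and 109 RPKM (0.52). Bhlhe40, a repressor that other signals induce too, was at 10.1 and 5.76 RPKM (log2 ratio -0.80), and Bhlhe41 at 1.74 and 1.10 RPKM (-0.62). The targets named next were below the filter. Hey2, the arterial Hey repressor, was at 0.261 RPKM in WT, about 18 reads, and at 0 in Kai1-/-. The counting interval of this ratio reached up to 25.2% of WT. Nrarp, a feedback inhibitor of Notch, was at 0.0427 and 0.205 RPKM, about 3 and 13 reads. Hes7, an oscillating repressor of somite formation, was at 0.0887 and 0.295 RPKM, about 4 and 13 reads. With scaling to Gapdh the counting intervals of Nrarp and Hes7 include equal levels, so that no direction is given for them.

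Markers of cell type and state also differed between the libraries, and their part in the values above was not tested. Of the mural markers, Pdgfrb was at 44.7 and 31.6 RPKM, Acta2 at 3823 and 2580 RPKM, and Cspg4 at 15.4 and 8.27 RPKM. The pericyte markers Rgs5, Abcc9 and Kcnj8 stayed below 1 RPKM in both libraries. Kcnj8 was at 0 in WT and at 0.791 RPKM in Kai1-/-, about 42 reads, with a counting interval from 1206% of WT upwards. Rgs5, on about 7 and 24 reads, was at 369% of WT with an interval from 159% to 1043%. The interval of Abcc9, from 21.6% to 232% of WT, includes equal levels. For the counts that follow, 7.81% of all genes kept were lower and 7.98% higher by more than 2-fold. Of 12 mural markers 7 were kept, with 4 more than 2-fold lower, namely Mcam, Myh11, Cnn1 and Tagln, and 0 higher. Of those below the filter, Kcnj8 and Rgs5 were higher, whereas Des, at 20.3% of WT, and Anpep, at 48.9%, were lower. The whole list summed to 4645 RPKM in WT and 2978 RPKM in Kai1-/-. Of 8 smooth muscle genes known to respond to Notch, which partly overlap the mural list, 6 were kept, and 3 of them, Tagln, Myh11 and Cnn1, were more than 2-fold lower. Myh11, a smooth muscle myosin heavy chain, was at 2.96 and 0.346 RPKM, while Smtn was at 35.6 and 42.5 RPKM.

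Of 16 endothelial markers, 5 were listed at 0 in both libraries and 8 were above 0 in WT only. Among all 20211 symbols, 5690 were at 0 in WT and 6902 in Kai1-/-. The share of all symbols above 0 in WT only was not computed, so the count of 8 has no baseline here. Of the 8 markers, Vwf, Tie1 and Cdh5 rested on about 1, 2 and 3 reads in WT. Tek was at 0.409 RPKM in WT, about 54 reads, and at 0 in Kai1-/-, with a counting interval up to 7.82% of WT. Pecam1 was at 0.413 RPKM in WT, about 40 reads, and at 0 in Kai1-/-, with an interval up to 10.7% of WT. Erg and Kdr, on about 28 and 21 reads in WT, were also at 0 in Kai1-/-, and Ptprb was at 1.10 and 0.198 RPKM. These markers were lower in the same library as Notch4 and Hey2, and their part in those values was not tested. Cdh5 was at 0.0267 RPKM in WT, about 3 reads, and 0 in Kai1-/-. Flt1 was at 1.23 and 1.01 RPKM, with an interval from 67.9% to 101% of WT. The sum of the list, 46.0 and 22.6 RPKM, was mostly Eng, at 42.0 and 21.4 RPKM.

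Of 16 macrophage markers 5 were kept, with 4 more than 2-fold lower and 1 higher, beside 7.81% and 7.98% of all genes kept. The lower ones were Csf1r (11.7 and 2.66 RPKM), Tyrobp (10.4 and 2.37 RPKM), Fcer1g (11.3 and 2.47 RPKM) and Lyz2 (3.44 and 1.09 RPKM). Cd14 was higher, at 1.98 and 10.3 RPKM. The list summed to 41.4 and 19.5 RPKM, and to 39.4 and 9.21 RPKM without Cd14, with Aif1, C1qa and C1qb at 0 in both libraries. Of 9 adventitial fibroblast markers 8 were kept, with Pdgfra, Col1a2, Dpt, Ly6a and Pi16 more than 2-fold lower and Cd34 more than 2-fold higher, and sums of 3121 and 1497 RPKM. On this list Ly6a was highest, at 1354 and 569 RPKM, and Lum lowest, at 0.0541 and 0 RPKM. All 12 cell cycle genes were higher in Kai1-/-, with sums of 184 and 510 RPKM, and all but Bub1 and Tyms, that is 10 of them, were more than 2-fold higher. Among all genes kept, 44.9% had a log2 ratio below 0 and 7.98% were more than 2-fold higher.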

How the data were processed

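The authors aligned RNA-seq reads to mm9 with TopHat2 2.0.9 and Bowtie, measured genes with the Cufflinks tools and deposited RPKM values, 1 for each gene and library, which are not read counts. The 10 genes and the other lists were chosen with earlier results of these data known. Of 20462 rows, 38 had no symbol and were left out, and for the 153 symbols on several rows the mean was taken. Log2 ratios were computed after adding 0.1 RPKM, and genes averaging 1 RPKM or more were kept for counts and medians. The genes named were all members, Notch4, pathway genes kept and past 2-fold, the highest gene of each role, Cd82, Gapdh, and markers that were kept and past 2-fold (cell cycle genes as a count) or that define a cell type. Other genes named, among them Id1, Hey2, Nrarp, Hes7, Ncstn, Psen2, Aph1b, Numb, Bhlhe40 and Ddx3y, were chosen after their values were seen, as were the GC box and the promoters searched.

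Reads were estimated from the steps of low RPKM values, using the longest transcript in the GENCODE M1 annotation of NCBI37 less 200 bases, in genes with 1 transcript of over 800 bases. Within 0.15 of a whole read lay 81.1% of 586 low values in WT and 78.7% of 381 in Kai1-/-. Genes with several transcripts, such as Notch1, have less certain reads. Intervals are exact Poisson for levels, Clopper-Pearson on the read split for ratios, and delta method for shares. The estimates and calls were tested on simulated data. Alternatives were other pseudocounts, scalings and filters, removal of a lowess trend on transcript length, and the first row of each symbol. Software was Python 3.11.15 with matplotlib 3.10.9, statsmodels 0.14.6, scipy 1.17.1, pandas 2.3.3 and numpy 2.4.6.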

Additional observations from a re-analysis of the deposited data

How the results depend on the processing

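The number of members more than 2-fold lower was 0 as reported, 3 with a pseudocount of 0.01 RPKM (Notch3, and Dll1 and Dll4 on 2 and 3 WT reads), 1 with the median log2 ratio at 0 and 1 with the upper quartiles made equal (Notch3), and 2 when scaled to Gapdh (Notch3 and Hes1). With no pseudocount, an alternative added after seeing the data, it was 1 (Notch3), and 1 member was more than 2-fold higher (Jag2). The median log2 ratio of the members kept was -0.57 when scaled to Gapdh and -0.66 with a minimum mean of 5 RPKM, where Hes1 was the 1 member left. Notch1 turned to -0.023 when scaled to Gapdh. Notch3 ranged from -1.37 to -0.45, the latter with a pseudocount of 1 RPKM. Of the other pathway genes kept, 2 instead of 4 were more than 2-fold higher with a pseudocount of 1 RPKM, 2 with the upper quartiles made equal and 2 when scaled to Gapdh. More than 2-fold lower were 5 instead of 3 with the upper quartiles made equal, 10 when scaled to Gapdh and 5 without the filter, and scaling to Gapdh moved their median to -0.56. Scaling moves all genes alike apart from the pseudocount, so these shifts follow from its construction. Of 97 recomputed member ratios, 30 could not move, since the filters and the choice of row do not enter them, and 18, of Dll1, Dll4 and Heyl, had no lower end to their interval. Of the other 49, 43 moved by no more than the width of their counting interval divided by 2. Notch1 once and Jag1 under each of 3 scalings had the other sign. No paired analysis was possible because the design holds 1 library per genotype. Depth leaves 5 members under 10 reads in both libraries.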
